A study of Mus musculus with 8 samples.

Results

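Pituitary hormone genes were followed through 8 mouse brain libraries, as the 5 genes whose symbol in the deposited count table is exactly Gh, Prl, Pomc, Cga or Tshb, of 25815 genes in all. The libraries were made from poly(A)+ RNA of brain, labelled as total brain, at postnatal day 50. The D50A group held 5 libraries from mice labelled with the Cstf2D50A genotype, a change of aspartate to alanine in CSTF2, an RNA-binding subunit of the cleavage stimulation factor that acts in mRNA 3' end formation. The WT group held 3 libraries from wild type littermates. Both groups came from a colony backcrossed for 4 generations to C57BL/6NCrl and then bred within itself, and no mouse was treated. The labels give neither sex nor litter, and they do not say whether the pituitary was taken out with the brain. The question here was whether counts of these hormone genes followed the genotype or single libraries.

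The pituitary hangs below the hypothalamus and is not part of the brain proper. In its anterior lobe, somatotropes make growth hormone (Gh), lactotropes make prolactin (Prl), and corticotropes make Pomc, the precursor of corticotropin; melanotropes of the intermediate lobe also make Pomc. Thyrotropes and gonadotropes share the glycoprotein hormone alpha subunit (Cga), which pairs with Tshb in thyrotropin and with Lhb or Fshb in the gonadotropins. Of the 5 genes, Pomc is also transcribed in neurons of the hypothalamic arcuate nucleus, and Tshb and Cga also in the pars tuberalis, a sheath of the pituitary stalk that touches the hypothalamus. In bulk tissue, fewer cells of a type and less RNA per cell cannot be told apart.

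The promoters of Prl, Pomc, Cga and Tshb are shown because all these genes had their highest level in the same library. RefSeq's table for GRCm38.p6 (mm10) held these 4 of the 5 genes. Each line gives the 250 bases before the transcription start, 5′ to 3′ on the gene's own strand, with capitals on TATAAA read on that strand and on ATGNATA read on either strand.
Prl, chr13:27057320-27057569, plus strand: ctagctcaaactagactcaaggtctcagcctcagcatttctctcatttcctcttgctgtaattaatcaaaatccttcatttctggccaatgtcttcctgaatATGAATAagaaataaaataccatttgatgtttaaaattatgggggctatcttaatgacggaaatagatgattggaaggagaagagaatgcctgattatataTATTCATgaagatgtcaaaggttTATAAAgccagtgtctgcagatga
Pomc, chr12:3954695-3954944, plus strand: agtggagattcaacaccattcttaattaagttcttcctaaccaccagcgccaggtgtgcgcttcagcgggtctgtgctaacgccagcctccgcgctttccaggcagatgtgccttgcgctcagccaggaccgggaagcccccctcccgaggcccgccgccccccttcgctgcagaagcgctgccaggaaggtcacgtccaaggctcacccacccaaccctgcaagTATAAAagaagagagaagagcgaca
Cga, chr4:34893529-34893778, plus strand: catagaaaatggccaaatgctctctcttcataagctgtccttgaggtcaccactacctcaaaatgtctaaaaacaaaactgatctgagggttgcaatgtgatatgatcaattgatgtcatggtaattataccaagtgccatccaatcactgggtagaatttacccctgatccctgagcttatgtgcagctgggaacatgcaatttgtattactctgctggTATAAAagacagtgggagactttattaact
Tshb, chr3:102782715-102782964, minus strand: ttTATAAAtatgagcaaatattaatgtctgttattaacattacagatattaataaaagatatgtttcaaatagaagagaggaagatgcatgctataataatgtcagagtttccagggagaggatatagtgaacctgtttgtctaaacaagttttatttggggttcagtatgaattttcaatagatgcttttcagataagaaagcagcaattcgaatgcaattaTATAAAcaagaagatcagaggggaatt

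TATAAA, the TATA box letters, stood in 4 of the 4 promoters, against 12.4% of 32851 mouse promoter windows of the same length. Its first base lay at -24 in Prl, -25 in Pomc, -30 in Cga and -27 in Tshb, counted so that -1 is the last base before the start. ATGNATA, or TATNCAT on the other strand, is the core of sites bound by POU1F1, the transcription factor of somatotropes, lactotropes and thyrotropes. It stood in 1 of the 4, Prl, from -148 to -142 and from -47 to -41, against 7.92% of all windows. TAATCC, a core bound by PITX factors, stood in none of the 4 windows and in 6.25% of all. Both strands were searched for each motif, and in Prl and in the upstream copy of Tshb a reverse-strand TATAAA overlaps the forward one. These matches describe letters only.

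Total counts ran from 13675945 to 24802272 in the D50A libraries and from 16455364 to 20551906 in the WT libraries, so that 1 count was worth 0.0389 to 0.0925 CPM (counts scaled to library sizes adjusted by edgeR's TMM factors). D50A 3 stood apart from the other libraries. Mitochondrially encoded genes took 11.9% of its counts, 4.08% to 5.14% in the other D50A libraries, and 4.19% to 4.69% in WT. The edited gene, Cstf2, was at 65.8 to 129 CPM in D50A libraries and at 122 to 135 CPM in WT libraries (edgeR adjusted p = 0.84), and a missense change need not alter the count. Libraries also differed in transcripts of the cerebellum, a region that a total brain sample holds. Gabra6, a GABA receptor subunit of cerebellar granule neurons, was counted 0, 1049, 1168, 2037 and 2092 times in D50A 1 to 5, against 0, 6 and 2 times in WT 1 to 3. D50A 1 and the WT libraries were thus at or near 0, and D50A 2 to 5 were not. The 10 brain identity genes, among them the presynaptic gene Snap25 and the myelin gene Mbp, summed to 11793 to 18457 CPM in D50A libraries and to 11664 to 12045 CPM in WT libraries.

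WT 2 carried most of the hormone counts of the whole series. The 5 genes together took 0.0868% of all counts in WT 2 (exact 95% binomial interval 0.0855% to 0.0881%). In the D50A libraries that share was 0.000405% to 0.00115%, and in WT 1 and WT 3 it was 0.00201% and 0.000395%. Of the counts summed over 8 libraries, WT 2 held 97.1% for Gh, 98.8% for Prl, 80.1% for Pomc, 92.8% for Cga and 38.6% for Tshb. Intervals here cover counting error only, not differences between animals.

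**Figure D1:**
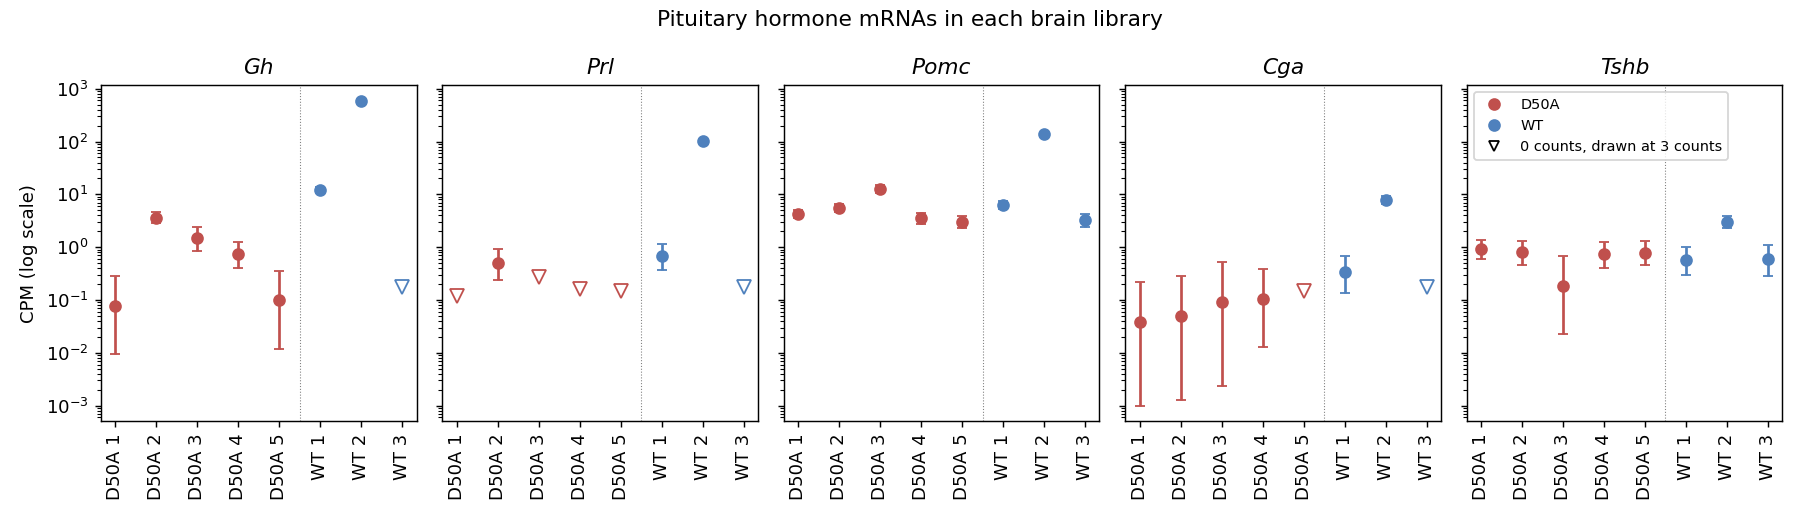
CPM of each hormone gene (log axis) in the 5 D50A libraries, left of the dotted line, and the 3 WT libraries, with exact 95% Poisson intervals for counting error; open triangles mark 0 counts and are drawn at the CPM of 3 counts. WT 2 is the highest library in all 5 panels, at 595 CPM for Gh and 2.99 CPM for Tshb; outside WT 2, Pomc ranges from 2.97 to 12.8 CPM and Gh from 0 to 12 CPM.

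Gh, at chr11:106300271-106301865 on the minus strand of mm10 (ENSMUSG00000020713, protein coding), encodes growth hormone. D50A 1 to 5 held 2, 71, 16, 14 and 2 counts of it, and WT 1 to 3 held 250, 11761 and 0. In CPM these were 0.0779, 3.6, 1.48, 0.742 and 0.0989 in D50A, against 12, 595 and 0 in WT. WT 2 was 49.5 times as high as WT 1, the next library, and WT 3, at the other end, had no count, which allows up to 0.178 CPM (3 counts). The groups therefore overlapped, and the range within WT was wider than the difference between the group means.

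Prl, at chr13:27057570-27065205 on the plus strand (ENSMUSG00000021342), encodes prolactin, which shares its ancestry with growth hormone. Its counts were 0, 10, 0, 0 and 0 in D50A 1 to 5, and 14, 2061 and 0 in WT 1 to 3. The libraries with any Prl count, D50A 2, WT 1 and WT 2, were also the 3 highest for Gh. Their levels were 0.507 CPM in D50A 2, against 0.674 CPM in WT 1 and 104 CPM in WT 2. The share of Prl in the Gh and Prl counts was taken only in libraries with at least 50 counts on both genes together. Prl gave 12.3% of the Gh and Prl counts in D50A 2 (exact 95% interval 6.08% to 21.5%, 81 counts). In WT 1 it gave 5.3% (2.93% to 8.74%, 264 counts) and in WT 2 14.9% (14.3% to 15.5%, 13822 counts). The intervals of WT 1 and WT 2 do not overlap, so those 2 libraries held Gh and Prl in different proportions beyond counting error, while that of D50A 2 holds the value of WT 2 and overlaps the interval of WT 1.

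Pomc, at chr12:3954951-3960642 on the plus strand (ENSMUSG00000020660), encodes pro-opiomelanocortin and had at least 55 counts in every library. D50A 1 to 5 had 110, 109, 138, 66 and 60 counts, against 130, 2696 and 55 in WT 1 to 3. Its levels were 4.28, 5.53, 12.8, 3.5 and 2.97 CPM in D50A, and 6.25, 136 and 3.27 CPM in WT. Outside WT 2 the highest level was in D50A 3, the library that stands apart, and the other 6 ran from 2.97 to 6.25 CPM. WT 2 was 10.7 times as high as D50A 3 and 31.9 times the median of the other 7 libraries, a smaller ratio than the 803 of Gh. Library quality moved with the D50A 3 value, and its part in that value was not tested.

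Cga, at chr4:34893779-34907370 on the plus strand (ENSMUSG00000028298), encodes the subunit common to thyrotropin and the gonadotropins. D50A 1 to 5 gave 1, 1, 1, 2 and 0 counts, and WT 1 to 3 gave 7, 155 and 0. WT 2 reached 7.85 CPM, 23.3 times the 0.337 CPM of WT 1, and all D50A libraries were at or below 0.106 CPM. Against Gh, Cga gave 1.39% of the 72 counts on both genes in D50A 2 (exact 95% interval 0.0352% to 7.5%). It gave 2.72% of 257 in WT 1 (1.1% to 5.53%) and 1.3% of 11916 in WT 2 (1.11% to 1.52%). This share, too, was taken only in libraries with at least 50 counts on both genes together. D50A 4, with 2 counts of Cga and 14 of Gh, was among those left out. The 3 intervals overlap, so among these 3 libraries no difference in the proportion of Cga to Gh was detectable at these counts. GENCODE M21 places Platr9 on the opposite strand, where 305 bases of Cga exons are shared, and no source used here states the strand setting of the counting.

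Tshb, at chr3:102775465-102782718 on the minus strand (ENSMUSG00000027857), encodes the beta subunit of thyrotropin and had the smallest ratio of WT 2 to the next library among the 5 genes. Counts of Tshb were 24, 16, 2, 14 and 16 in D50A 1 to 5, and 12, 59 and 10 in WT 1 to 3. Its levels were 0.934, 0.811, 0.185, 0.742 and 0.791 CPM in D50A, against 0.577, 2.99 and 0.594 CPM in WT. WT 2 was again the highest, at 3.2 times the next library, D50A 1. Unlike Gh, Prl and Cga, Tshb had counts in WT 3, and D50A 3 was its lowest library. Tshb overlaps the span of Tspan2, a gene on the opposite strand at 4260 to 5742 counts per library, with 0 bases of exon shared. Without a known strand setting, reads from introns of Tspan2 cannot be told from Tshb. Tspan2 was at 250 CPM in WT 2, within the range of 229 to 253 CPM in WT and of 224 to 482 CPM in D50A.

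The order of the hormone mRNAs depended on the library. Per kilobase of annotated exon (RPKM), WT 2 had 691 for Gh, 104 for Pomc, 74.1 for Prl, 8.23 for Cga and 0.656 for Tshb. The medians of the other 7 libraries were 3.25 for Pomc, 0.86 for Gh, 0.163 for Tshb, 0.0531 for Cga and 0 for Prl. Pomc gave 80.3%, 52.7%, 87.9%, 68.8% and 76.9% of the counts on the 5 genes in D50A 1 to 5, and 31.5%, 16.1% and 84.6% in WT 1 to 3. Gh gave 60.5% of them in WT 1 and 70.3% in WT 2. The length of Tshb, 4555 bases over all annotated exons, lowers its RPKM where shorter transcripts are the ones expressed.

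**Figure D2:**
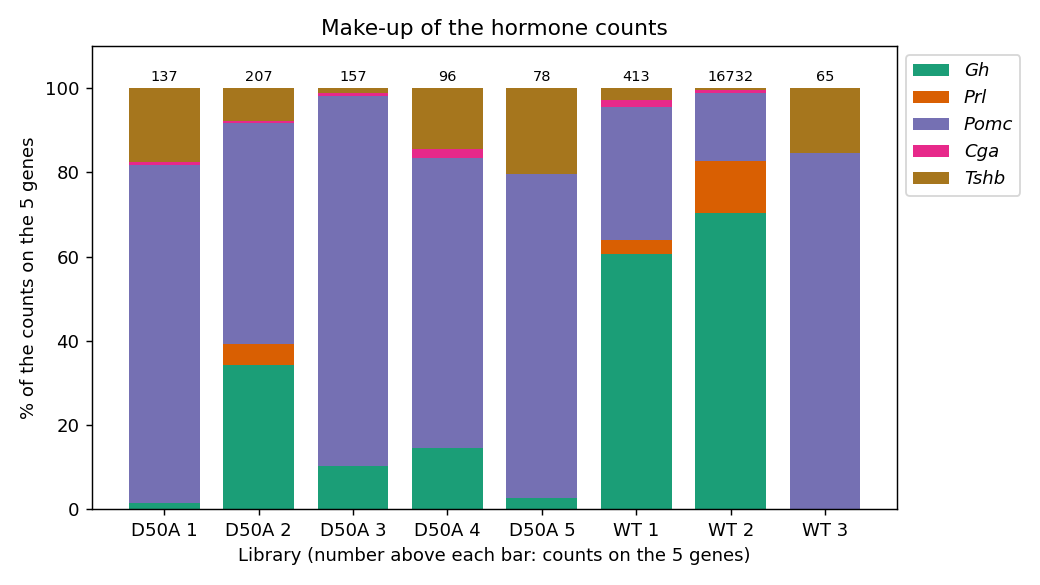
Share of each gene in the counts on the 5 hormone genes (vertical axis, percent) for the D50A libraries on the left and the WT libraries on the right; the number above a bar is the counts it rests on. Pomc is the main part in all D50A libraries and in WT 3, and Gh in WT 1 and WT 2, which hold 413 and 16732 counts.

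No hormone gene passed the test between the genotypes. Gh averaged 1.2 ± 1.46 CPM in D50A (SD, n = 5) and 202 ± 340 CPM in WT (SD, n = 3), a log2 fold change of -7.42 ± 2.08 (SE; adjusted p = 0.84, quasi-likelihood test of edgeR). Prl averaged 0.101 ± 0.227 CPM in D50A and 35 ± 60 CPM in WT, a log2 fold change of -8.29 ± 2.17 (SE) (edgeR adjusted p = 0.84). Pomc averaged 5.81 ± 4.01 CPM in D50A and 48.7 ± 76.1 CPM in WT, a log2 fold change of -3.09 ± 1.09 (SE) (edgeR adjusted p = 0.84). For these 3 genes the SD in WT was larger than the WT mean. Tshb averaged 0.693 ± 0.293 CPM in D50A and 1.39 ± 1.39 CPM in WT, a log2 fold change of -0.94 ± 0.61 (SE) (edgeR adjusted p = 0.84). Cga, at 0.0576 ± 0.0426 CPM in D50A and 2.73 ± 4.44 CPM in WT, did not pass the filter on low counts. With no filter it differed by a log2 fold change of -5.54 ± 1.45 (SE; edgeR adjusted p = 0.85).

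Of the 4 members that passed the filter, 0 were called, and 3 had an unadjusted p under 0.05. edgeR called 0% of 16810 genes higher and 0% lower, with 420 at an unadjusted p under 0.05. By DESeq2 0.202% were called higher and 0.0357% lower. By limma-voom with quality weights 1.87% were called higher and 1.2% lower, and no member was among its calls. Without D50A 1, edgeR called 0.156% of genes higher and again no member. DESeq2 gave neither a p nor an adjusted p for Gh, Prl and Pomc, so it could not call them. It did not call Tshb (DESeq2 adjusted p = 0.86). In 5 of the 5 members the D50A and WT libraries overlapped, whereas 4.24% of all genes tested had all D50A libraries below all WT libraries and 3.22% had them above.

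Among the 4 members tested, the estimates moved toward or past 0 without WT 2. In that fit, the log2 fold change of Pomc was 0.26 with an SE of 0.6, and that of Tshb was 0.29 with an SE of 0.49, both with the sign turned (edgeR adjusted p = 0.93). Gh was at -2.36 with an SE of 1.51 and Prl at -1.69 with an SE of 1.59, where WT 1 held all WT counts of both genes (edgeR adjusted p = 0.93). Leaving out any other single library kept the signs of Gh, Pomc and Tshb, and that of Prl where Prl was tested. Prl did not pass the filter without D50A 2, and Cga passed it in none of these fits. Without D50A 1, the D50A library with cerebellar transcripts near 0, Gh was at -7.08, Prl at -7.88, Pomc at -2.97 and Tshb at -1.05 on the log2 scale.

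**Figure D3:**
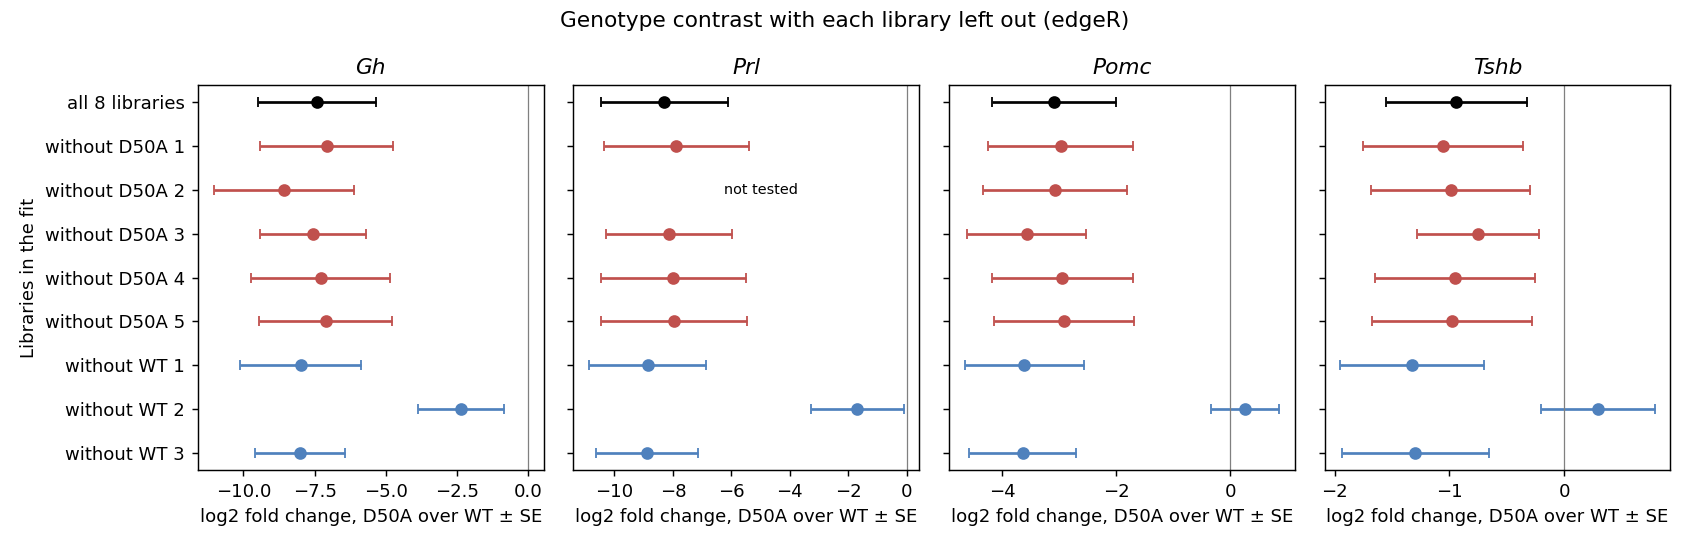
Log2 fold change of D50A over WT with its SE from edgeR (horizontal axis, scaled for each gene) when each library is left out in turn; black is the fit on 8 libraries, red leaves out a D50A and blue a WT library. Only the fit without WT 2 turns a sign, for Pomc at 0.26 and Tshb at 0.29. Gh at -2.36 and Prl at -1.69 stay below 0 there, nearer to it than in the other fits shown. Prl did not pass the filter without D50A 2.

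Several genes that mark pituitary cells were also highest in WT 2, at far lower counts than the hormones. Fshb, the follicle-stimulating hormone subunit, had 62 counts in WT 2 and 0 in the other 7 libraries, at least 11.3-fold higher than the largest CPM that 3 counts give in any of those. Ghrhr, the receptor for growth hormone-releasing hormone on somatotropes, had 32 counts in WT 2 and 0 in the others, at least 5.84-fold higher by the same limit. Counts of Pou1f1 were 0, 1, 3, 0 and 0 in D50A 1 to 5, and 1, 26 and 0 in WT 1 to 3. Pitx1, a homeobox gene of the pituitary primordium, reached 8, 3, 2, 4 and 1 counts in D50A and 6, 27 and 1 in WT. Gnrhr, the gonadotrope receptor for gonadotropin-releasing hormone, had 11 counts in WT 2 and 0 or 1 elsewhere, and Lhx3, a LIM homeobox gene, had 20 against 0 to 9. Lhb, the luteinizing hormone subunit, had 12, 8, 1, 3 and 3 counts in D50A and 9, 8 and 11 in WT, with no excess in WT 2. Of the transcription factors with at least 10 counts in some library, 6 of 11 were highest in WT 2, as were 4 of 10 receptors. As a whole the transcription factor list summed to 51.7 to 63.6 CPM in D50A libraries and to 58.9 to 67.2 CPM in WT libraries. The receptor list summed to 52 to 77.9 CPM in D50A libraries and to 79.8 to 80.4 CPM in WT libraries.

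Sox2 and Drd2, which brain cells also express, were highest in WT 2 by small ratios. Sox2, a neural stem cell factor, lay at 40 to 48 CPM in D50A libraries and at 45.5 to 48.7 CPM in WT libraries. WT 2 was 1.01 times as high as D50A 3, the next library. Drd2, the dopamine receptor of lactotropes and of striatal neurons, lay at 9.99 to 19.5 CPM in D50A libraries and at 20.3 to 22 CPM in WT libraries. WT 2 was 1.05 times as high as WT 1, and all D50A libraries lay below all WT libraries, as in 4.24% of all genes tested. The highest D50A library was D50A 1, with cerebellar transcripts near 0, and the part of dissection was not tested. Of 14 pituitary transcription factors with a count in some library, 6 were tested, and edgeR, DESeq2 and limma-voom called 0, with a median log2 fold change of -0.19 by edgeR. Of 12 receptors 8 were tested. edgeR and DESeq2 called 0 of them, and limma-voom called 1 lower, Drd2; the median was -0.36 by edgeR. In both lists 0 genes had an unadjusted p under 0.05 by edgeR. The median of all genes tested was -0.01.

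Of the hypothalamic lists, the releasing factors and the neuropeptides summed highest in WT 2 by small margins, and the hypothalamic regulators in WT 1. The releasing and inhibiting factors summed to 126 to 167.1 CPM in D50A libraries and to 147 to 173 CPM in WT libraries. The arcuate and other neuropeptides summed to 57.8 to 68.6 CPM in D50A libraries and to 66.3 to 72.5 CPM in WT libraries. WT 2 held the upper value both times. Hypothalamic regulators summed to 12.1 to 15.7 CPM in D50A libraries and to 15 to 17 CPM in WT libraries. For these WT 1 held the upper value, and WT 2 was at 16.2 CPM. Sst, the gene of somatostatin, which inhibits growth hormone release, ranged from 85.7 to 115 CPM in D50A libraries and from 108 to 131 CPM in WT libraries. Its level in WT 2, 131 of the 173 CPM of its list, was 1.03 times that in WT 1. Npy, the neuropeptide Y gene, ranged from 27.8 to 38.1 CPM in D50A libraries and from 38.1 to 38.8 CPM in WT libraries, also highest in WT 2. There it gave 38.8 of the 72.5 CPM of its list. The sums thus rest largely on Sst and Npy. In each of their lists, 1 of 7 genes with at least 10 counts in some library was highest in WT 2. Agrp, a peptide gene of arcuate neurons beside those with Pomc, lay at 1.32, 1.01, 1.2, 1.11 and 1.43 CPM in D50A 1 to 5, and at 0.914, 1.27 and 0.832 CPM in WT 1 to 3. Avp, the vasopressin gene, ranged from 8 to 14.9 CPM in D50A libraries and from 12 to 13.4 CPM in WT libraries, with 12.7 CPM in WT 2. Ghrh, the releasing hormone for Gh, had 3 to 9 counts in D50A and 5 to 6 in WT. In WT 2 the log2 CPM of the 7 releasing factor genes with at least 10 counts in some library lay between -0.91 and 0.27 of their medians over 8 libraries. For the 5 hormone genes the same deviation ran from 1.83 to 9.96. Of the releasing factors 7 were tested, and edgeR and DESeq2 called 0 (median log2 fold change -0.05 by edgeR, with 0 at an unadjusted p under 0.05). Of the arcuate and other neuropeptides 7 were also tested, and both tools again called 0 (median -0.22 by edgeR, with 1 at an unadjusted p under 0.05). limma-voom called 1 lower in each list, Sst and Npy.

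**Figure D4:**
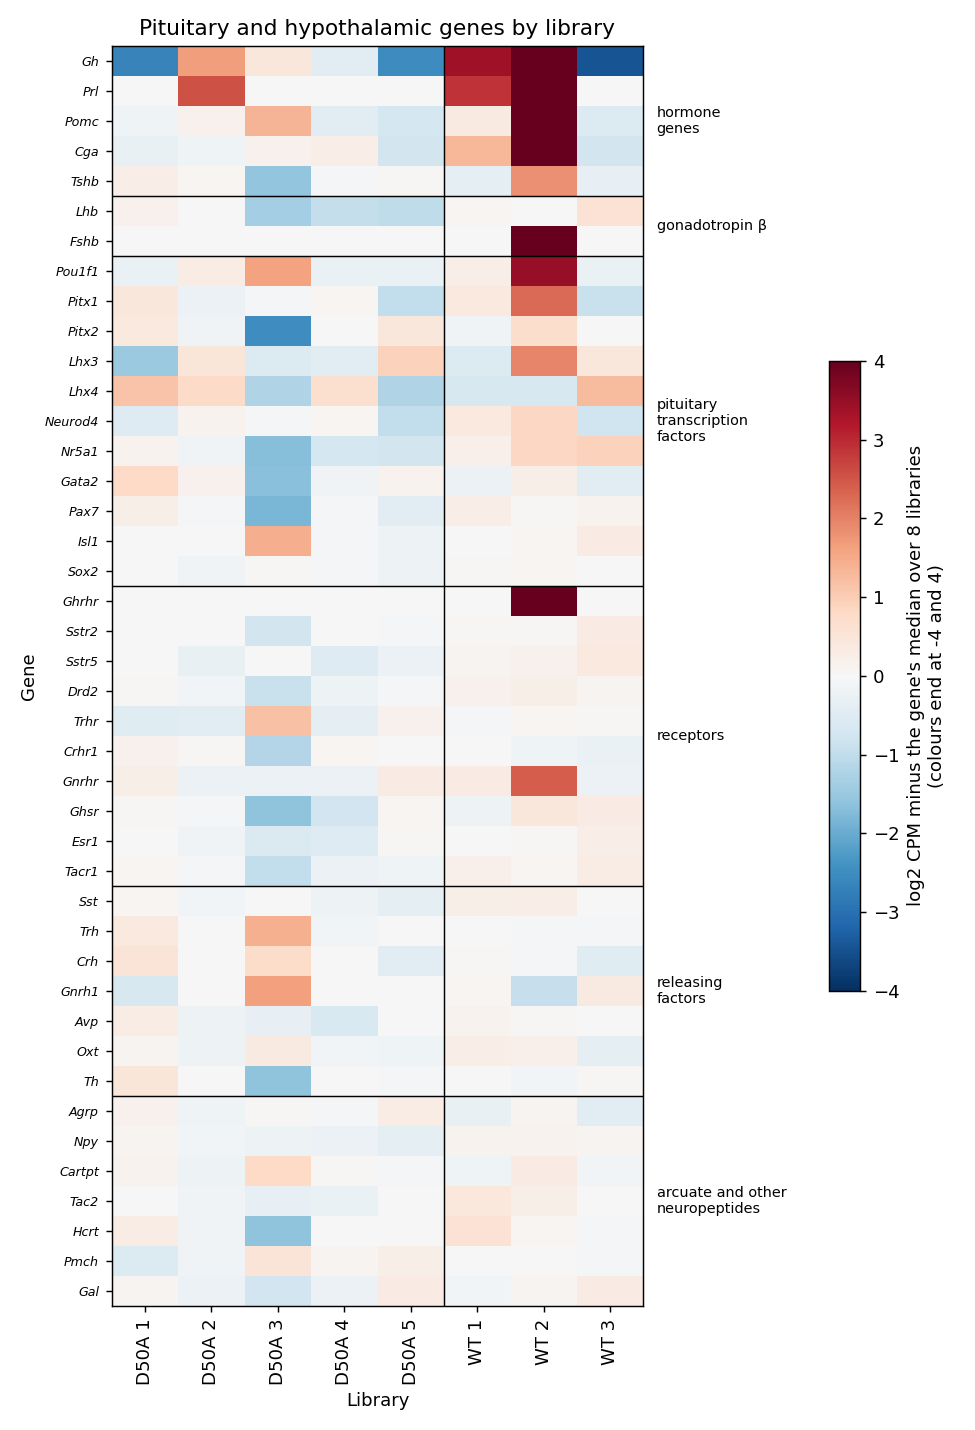
Log2 CPM of each gene minus its median over 8 libraries (colour, cut at -4 and 4). Rows are hormone, pituitary, releasing factor and neuropeptide genes with at least 10 counts in some library. D50A libraries stand left of the vertical line and WT libraries right of it. WT 2 is dark red for Gh, Prl, Pomc, Cga, Fshb, Ghrhr and Pou1f1 and pale for the releasing factors and neuropeptides, where its deviations run from -0.91 to 0.31.

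Genes that process or receive these hormones were measured in all libraries. The 11 genes of prohormone processing and secretory granules summed to 4262 to 4642 CPM in D50A libraries and to 4540 to 4759 CPM in WT libraries, with 4687 CPM in WT 2. edgeR called 0 of the 11, with a median log2 fold change of -0.12. limma-voom called 2 lower, Pcsk2 and Pam. Pcsk2, a convertase that cleaves the Pomc precursor, averaged 202 ± 10.2 CPM in D50A (SD, n = 5) and 241 ± 3.28 CPM in WT (SD, n = 3), with an edgeR adjusted p of 0.84. Its D50A libraries, 192 to 216 CPM, lay below the WT libraries, 238 to 244 CPM, as in 4.24% of all genes tested. For Pcsk2, too, D50A 1 was the highest D50A library, and the part of dissection was not tested. Of 9 hormone receptor and target genes in brain, edgeR called 0, with a median of -0.19. Prlr, the prolactin receptor, averaged 10.2 ± 1.86 CPM in D50A (SD, n = 5) and 13.7 ± 0.644 CPM in WT (SD, n = 3), with an edgeR adjusted p of 0.84. WT 2, with its high Prl, had the lowest Prlr of the WT libraries, at 13 CPM.

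Markers of the choroid plexus, the meninges, the pineal gland and the cerebellum were compared in the same way. The summed level of 8 choroid plexus genes ran from 528 to 860 CPM in D50A libraries and from 445 to 571 CPM in WT libraries, with WT 2 the lowest. The summed level of 7 meningeal and fibroblast genes was 76.4 to 111 CPM in D50A libraries and 82.1 to 88.2 CPM in WT libraries, with 84.5 CPM in WT 2. Pineal genes summed to 8.48 to 33.1 CPM in D50A libraries and 9.82 to 10.6 CPM in WT libraries. Cerebellum markers summed to 156 to 918 CPM in D50A libraries and to 164 to 176 CPM in WT libraries, with D50A 1 the lowest. Much of that sum in D50A 1 and in WT was Calb1, a calcium-binding protein gene also active elsewhere in the brain, at 115 CPM in D50A 1 and at 130 to 140 CPM in WT. Cbln3, a granule neuron gene, was counted 16, 2977, 1271, 4520 and 4826 times in D50A 1 to 5, against 17, 17 and 23 times in WT 1 to 3. Fat2, a cadherin gene of granule neurons, had 38, 2022, 265, 2079 and 2332 counts in D50A, and 19, 22 and 14 in WT. These follow the split of Gabra6, and WT 2 did not differ in it from WT 1 and WT 3. Of the 7 markers DESeq2 called 6 higher and limma-voom 5, while edgeR called 0, with 6 at an unadjusted p under 0.05. The part of dissection in these values was not tested.

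WT 2 exceeded all other libraries by at least 4-fold in 5 of 14238 genes with 50 or more counts in their highest library, or 0.0351%. These 5 were Prl, Gh, Cga, Fshb and Pomc, which also had the 5 largest such ratios of all genes. The next 5 were Rps14, Rpl13a, Gm11478, mt-Nd3 and mt-Co3, each highest in D50A 3, from 8.87-fold to 10.3-fold. D50A 3 held 425 genes of this kind, and the other 6 libraries held 0. Taking 20 or more counts as the minimum, a choice made after the values were seen, WT 2 had 9 such genes of 16187, adding Ghrhr, Pou1f1, Pitx1 and Epcam, an epithelial adhesion gene, at 42 counts against at most 11.

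Across the 8 libraries the pattern of Gh was most like those of Prl and Cga among 17424 genes with at least 50 counts in total. Pearson's r of log2 CPM with Gh was 0.94 for Prl, 0.93 for Cga, 0.89 for Pomc and 0.56 for Tshb. Outside the members the 10 most alike were Neurod4, Gnb3, Il17d, Msln, Pitx1, Sfrp5, Cep55, Ankrd9, Zfp956 and Epcam, with r from 0.92 for Neurod4 to 0.83 for Epcam. Neurod4, a transcription factor gene listed here among pituitary factors, was counted 8, 11, 5, 10 and 4 times in D50A 1 to 5, and 14, 19 and 4 times in WT 1 to 3. These values lean on WT 2: without it r was 0.84 for Gh with Prl, 0.85 with Cga, 0.6 with Pomc and -0.26 with Tshb, over 7 libraries. Cga was then at rank 9 and Prl at rank 16 of likeness to Gh, behind, among others, Neurod4 at 0.92 and Il17d at 0.89. The minimum of 50 counts was applied with WT 2 included. Outside WT 2, no library had more than 7 counts of Cga or 14 of Prl. The r and rank of both genes without WT 2 thus rest on few counts. These values are descriptions, and the points share library depth and, in D50A 3, the library that stands apart.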

How the data were processed

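The deposited values are the authors' unnormalized counts of reads for 25815 genes, 1 column a library. The tools listed, per the submitters' processing notes, are STAR 2.5, HTSeq 0.6.1, DESeq2 2 and CASAVA 1.8, with build mm10 and no order. Annotation release and strand setting: not given in the sources used here. Libraries were grouped by genotype label and numbered in order of deposit. The labels name separate animals, and p-values rest on the spread between libraries, 1 per animal.

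Counts of all 8 libraries were tested with edgeR 4.0.16 (R 4.3.3; filterByExpr, TMM, quasi-likelihood, Benjamini-Hochberg over 16810 genes, threshold 0.05); an SE is the log2 fold change over the square root of F. Log2 CPM used a prior count of 2. Intervals are exact 95% Poisson or binomial. Alternatives were DESeq2 1.42.0, limma-voom 3.58.1 with quality weights, other scaling and filters, a robust fit and each library left out; leaving out D50A 3 and WT 2 together was added after seeing the data.

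The members, gene lists and rules were chosen with earlier results of these data known. Named were all members, listed pituitary and hypothalamic genes with at least 10 counts in some library, the 4 genes with the smallest p of each other list, the 10 genes most like Gh and the 10 with the largest ratio of highest to second library. Ghrh, below that minimum, and Gabra6, Calb1, Snap25, Mbp, Tspan2 and the genes added at 20 counts were named after their values were seen. Positions and exon lengths came from GENCODE M21 (mm10), which matched 25484 gene identifiers.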

Additional observations from a re-analysis of the deposited data

Results flagged for a closer look

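In 3 of the 5 hormone genes a D50A library lay far from the other 4, by a gap over 0.71 of the whole D50A range (Dixon's test, 95%). Chance flags about 1 in 20 groups of values with normal spread. That rate does not hold for Prl, which was at 0.507 CPM in D50A 2 and at 0 counts in the other 4 D50A libraries: the gap then equals the range whatever the count, so the test is void for it. Pomc was at 12.8 CPM in D50A 3, against at most 5.53 CPM in the others. Tshb was at 0.185 CPM in D50A 3, on 2 counts, and at 0.742 CPM or more in the other 4. In D50A 3, mitochondrially encoded genes took 11.9% of all counts, and the part of library quality in its values was not tested. D50A 3 was also the highest library for 41.4% of 14238 genes with 50 or more counts in their highest library. The share of all genes with such a flag was not counted, so the flags are not read as particular to the hormone genes. The WT group, with 3 libraries, is too small for this test, so WT 2 was not judged by it.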

How the results depend on the processing

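Gh, Prl and Pomc kept a negative log2 fold change and no adjusted p under 0.05 with other scaling, other filters and the robust fit; Prl did not pass the filter of 1 CPM in 3 libraries, and Tshb did not either. Cga was tested only without a filter. limma-voom gave -4.32 for Gh, -5.27 for Prl and -2.23 for Pomc. Leaving out 1 library at a time gave -8.58 to -2.36 for Gh, -8.88 to -1.69 for Prl (not tested without D50A 2), -3.64 to 0.26 for Pomc and -1.32 to 0.29 for Tshb, with WT 2 at the upper end each time. Without D50A 3 and WT 2 together Tshb was 0.50 and Pomc -0.23. Calls over all genes, 0 by edgeR, were 34 higher and 6 lower by DESeq2 and 315 higher and 202 lower by limma-voom; leaving out 1 library gave 0 to 26 higher and 0 lower. Of the 127 genes of the other lists, edgeR called 0 (9 at an unadjusted p under 0.05), DESeq2 6 and limma-voom 11; leaving out 1 library gave 0 to 4. The 4 called without D50A 1 were cerebellum markers. No paired analysis was possible because the labels give no replicate numbers shared by the groups. Depth limits Cga and Prl most, where 1 count is 0.0389 to 0.0925 CPM.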
